A study of Mus musculus with 2 samples.

Results

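Lysosomal and cathepsin genes were examined in single cells from the optic nerves of Nf1-OPG mice. The set holds 29 genes, found by their symbols among the 32285 genes of the files, and all 29 had counts. Nf1-OPG mice (Nf1flox/neo; GFAP-Cre) carry 1 Nf1 allele disrupted in every cell and lose the other in neuroglial progenitors through a Cre transgene driven by the GFAP promoter, and they develop optic gliomas. Both libraries came from this genotype at 12 weeks of age, 1 from mice given anti-PDCD1 and 1 from mice given anti-TIGIT, antibodies against inhibitory receptors of T cells. Each library pooled the nerves of 10 mice, and live cells, which keep out the dye 7-AAD, were sorted after debris and myelin had been removed. No untreated library was analysed here. The protocol text also mentions meningeal dura, without saying whether dura entered these libraries.

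Lysosomes are acidic organelles in which proteases, glycosidases and lipases break down material that a cell has engulfed or recycled. Cathepsins are their proteases, and several also trim antigens and the invariant chain that class II MHC molecules carry. In the nervous system the enzymes are known above all from microglia and the macrophages of its borders, and inherited loss of many of the genes below causes lysosomal storage disease, often with loss of neurons or myelin.

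The anti-PDCD1 library held 13997 barcodes and 85031565 UMIs, and the anti-TIGIT library 7915 barcodes and 40733655 UMIs. After filters on genes, mitochondrial UMIs and doublets, 13260 and 7505 cells remained, with median depths of 4467 and 4124 UMIs. The libraries shared 163 barcodes. Of the 145 of these that were kept in both, 11 lay in the same class. Cells were assigned by marker genes that hold none of the 29, which placed 70.8% and 78.5% of them in 21 classes. Classes that reached 50 cells in both libraries, 13 in all, entered the comparisons. In the anti-PDCD1 library they held 1317 microglia, 232 border macrophages, 194 macrophages with both kinds of marker, 2745 oligodendrocytes, 546 oligodendrocyte precursors (OPC), 290 fibroblasts, 105 cDC1, 246 cDC2, 1482 CD8, 626 CD4 and 905 other T cells, 115 B cells and 359 plasma cells. In the anti-TIGIT library they held 448, 485 and 331 macrophages of these 3 kinds, 2074 oligodendrocytes, 98 OPC, 148 fibroblasts, 55 cDC1, 377 cDC2, 596 CD8, 318 CD4 and 435 other T cells, 109 B cells and 158 plasma cells. P2ry12, a marker used to assign microglia, stood at 481 CPM in anti-PDCD1 microglia and 1186 CPM in anti-TIGIT microglia. Mrc1, a marker used to assign border macrophages, stood at 890.1 and 1255 CPM in them. Because both genes took part in the assignment, these levels do not check the classes. Levels are UMIs summed over a class and scaled to 1000000 UMIs of that class (CPM), and intervals are exact 95% intervals that cover counting error only. Each treatment is 1 library, so no difference between treatments has a replicate check and no p-value was computed.

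The promoters of 25 of the 29 members were in the RefSeq table for GRCm38.p6. The letters CACGTG, the core of the site that TFEB and its relatives bind as regulators of lysosomal genes, stood within the 250 bases before the start in 7 of these 25, which is 28% of them, against 6.86% of all 27025 genes in the table. CACGTG reads the same on both strands. The 7 were Ctsa, Ctsd, Ctsl, Gla, Glb1, Lamp1 and Lgmn. The stretches of Lamp1 and Gla are shown because they hold several copies close together, and those of Ctsd and Lgmn because these 2 proteases were among the members furthest above other cells in macrophages. Sequences run 5′ to 3′ on the gene's strand, with the motif in capitals.
Lamp1, chr8:13159090-13159160, plus strand: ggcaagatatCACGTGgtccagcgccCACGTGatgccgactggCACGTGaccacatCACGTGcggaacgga
Gla, chrX:134601184-134601242, minus strand: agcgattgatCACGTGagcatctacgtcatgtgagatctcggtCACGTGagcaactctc
Ctsd, chr7:142387910-142387935, minus strand: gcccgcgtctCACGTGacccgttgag
Lgmn, chr12:102439126-102439151, minus strand: gaatgtctgtCACGTGgtccatttta
The 4 copies of Lamp1 lay between 61 and 15 bases before the start, and Ctsd had 2 copies, 245 and 98 bases before it, of which the nearer is shown. Starts are those of the RefSeq table: the stretches of Ctsd and Lgmn lie inside the gene spans of the GRCm38 annotation, which on their strand begin at 142388038 and 102439813. Of the 7 genes, Ctsa, Ctsd, Ctsl and Lgmn were highest in microglia in both libraries, Glb1 in microglia of the anti-PDCD1 library and mixed-marker macrophages of the anti-TIGIT library, Gla in microglia and B cells, and Lamp1 in oligodendrocytes in both. GAGGAAGT, a form of the site that the myeloid factor PU.1 binds, was searched on both strands and stood in Ctsc and Gla alone of the 25, against 2.79% of all genes. A match in letters is not a measured binding site.

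Macrophages carried most of these genes at levels above the other compared classes. The 29 genes made up 3.75% of all UMIs in microglia of the anti-PDCD1 library and 3.20% in those of the anti-TIGIT library, and 3.38% and 3.51% in border macrophages. Without the lysozyme gene Lyz2 the shares were 3.63% and 2.95% in microglia and 2.09% and 1.91% in border macrophages. The 29 genes made up 0.704% and 0.572% in oligodendrocytes, and 0.163% and 0.125% in plasma cells, the lowest of the compared classes. Monocytes (32 and 29 cells) and neutrophils (5 and 32 cells) were too few to be compared. The set made up 3.33% and 3.21% of UMIs in monocytes, close to macrophages, and 2.03% and 0.987% in neutrophils. Without Lyz2 these shares were 1.86% and 1.36% in monocytes and 0.215% and 0.204% in neutrophils. Per cell thinned to 1000 UMIs, the median was 34 member UMIs in anti-PDCD1 microglia and 30 in anti-TIGIT microglia, against 7 and 5 in the oligodendrocytes of the same libraries.

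Set against the mean of the 10 other classes, the 3 macrophage classes together had 25 members at least 2-fold higher on the scale log2(CPM + 5) in the anti-PDCD1 library, where 5.33% of all genes were, and 26 in the anti-TIGIT library, where 6.35% were. The same 25 genes passed in both libraries. Ctsk was lower in both, Gla and Npc1 stayed within 2-fold in both, and Lipa lay on either side of the limit, at 0.95 in the anti-PDCD1 and 1.09 in the anti-TIGIT library. The median member stood 2.20 above the other classes in the anti-PDCD1 library and 1.96 in the anti-TIGIT library, against -0.22 for all genes in each. In 20 and 18 of the members, the macrophages were above every other compared class beyond counting error. Microglia gave 9406448 UMIs to the macrophage sum of the anti-PDCD1 library, border macrophages 954925 and the mixed class 1153535. In the anti-TIGIT library they gave 1752672, 1702458 and 1389200 UMIs. Pooled levels therefore rest on a different mix of macrophages in each library and do not compare the treatments.

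**Figure D1:**
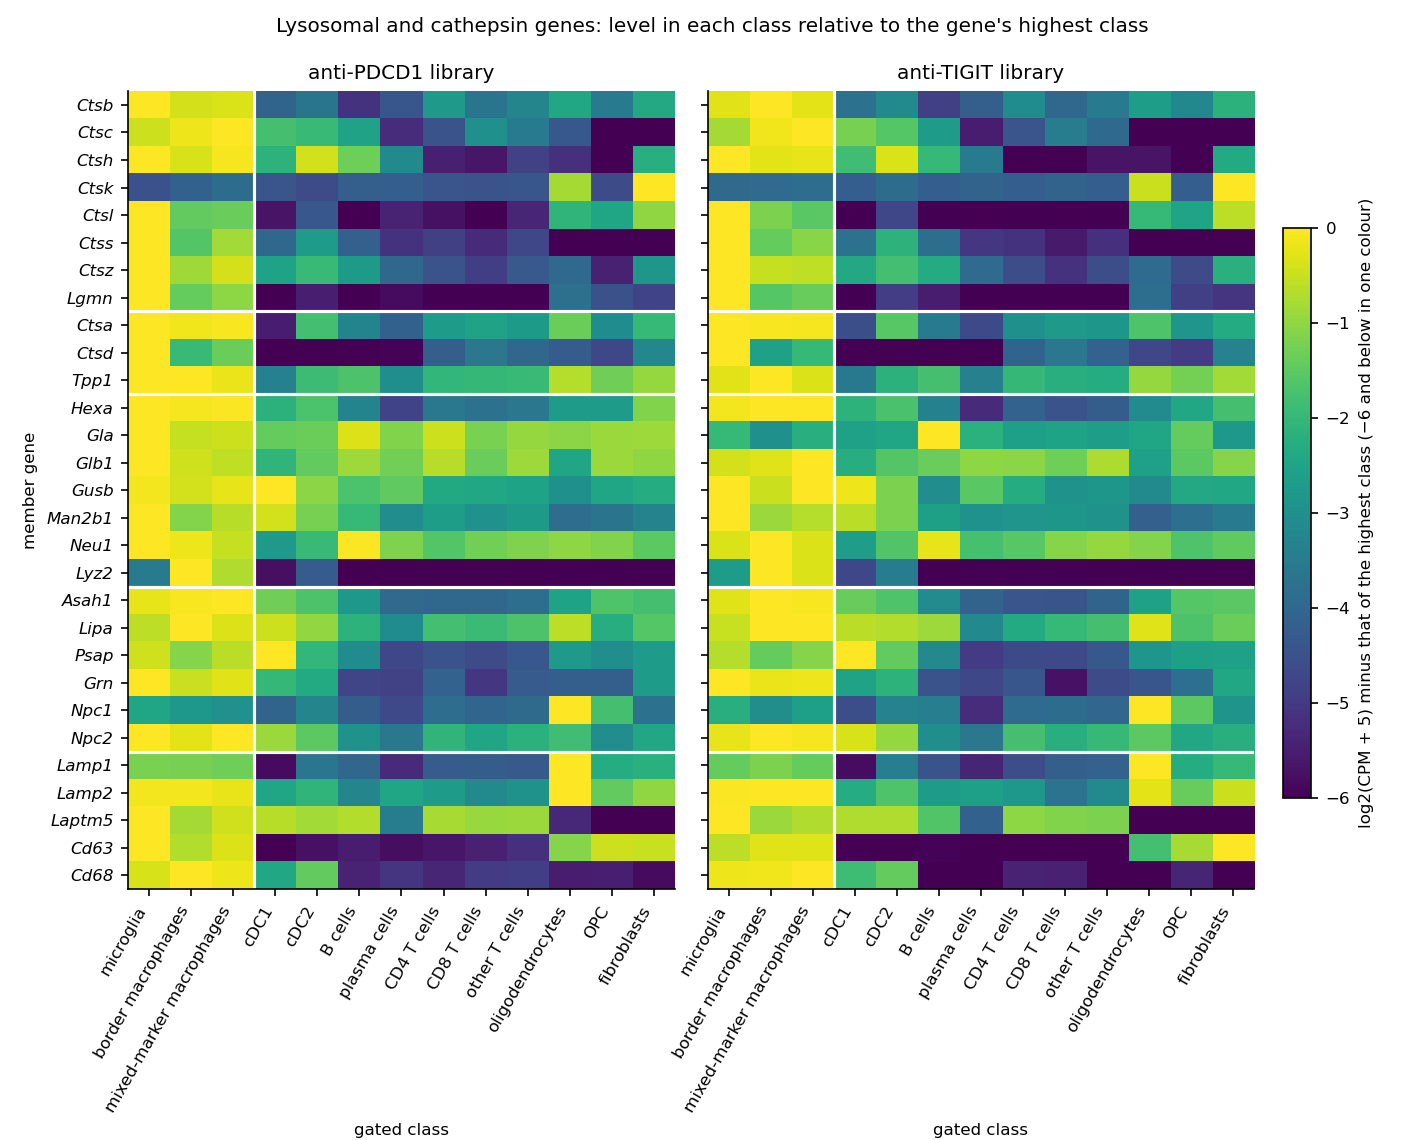
Level of each member in 13 classes of each library, as log2(CPM + 5) minus that of the gene's highest class, on a colour scale that ends at -6. The 3 macrophage columns at the left are brightest for most genes, while Ctsk, Npc1 and Lamp1 are brightest in fibroblasts or oligodendrocytes and Psap in cDC1.

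Among the cysteine cathepsins and legumain, 7 of 8 were at least 2-fold higher in macrophages in each library. Lgmn, the asparagine-specific protease that processes other cathepsins, stood at 2227 CPM in macrophages against a mean of 55.9 CPM in the other classes of the anti-PDCD1 library, and at 1575 against 54.7 CPM in the anti-TIGIT library. These are differences of 5.19 and 4.73, the widest of the cathepsin group. In microglia alone Lgmn stood at 2482 CPM in the anti-PDCD1 and 2676 CPM in the anti-TIGIT library. Ctss, which cuts the invariant chain in antigen-presenting cells, stood at 6895 against 315 CPM in the anti-PDCD1 library and at 3402 against 258 CPM in the anti-TIGIT library. Its next highest class was cDC2, at 1186 and 1229 CPM. Against a single class the margin was narrow for Ctsh, an aminopeptidase, with 593 CPM in macrophages and 455 CPM in cDC2 of the anti-PDCD1 library. For the pooled macrophages it was absent for Ctsl, an endopeptidase also secreted by fibroblasts. They held 454.6 CPM and fibroblasts 487 CPM in the anti-TIGIT library, although microglia alone held 741 CPM there.

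Ctsk, the collagen-degrading cathepsin known from osteoclasts and fibroblasts, was the exception. Macrophages held 0.955 CPM of it in the anti-PDCD1 and 1.24 CPM in the anti-TIGIT library, a difference of -2.03 and -1.69 from the mean of the other classes. Fibroblasts held 120 and 87.6 CPM and oligodendrocytes 66.3 and 61.7 CPM. Ctsk and Ctss lie next to each other on chromosome 3, 17423 bases apart with 0 coding genes between them. Of the classes in which Ctsk stood out, fibroblasts held less Ctss than Ctsk, at 23.2 and 3.13 CPM. Oligodendrocytes held 82.4 and 6.52 CPM of Ctss, which in the anti-PDCD1 library is more than their Ctsk.

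All 3 other proteases were higher in macrophages. The aspartic protease Ctsd stood at 4198 against 208 CPM in the anti-PDCD1 library and at 2285 against 176 CPM in the anti-TIGIT library. Within the macrophages it was a gene of microglia, which held 4782 and 4631 CPM, whereas border macrophages held 1239.9 and 778 CPM. Ctsa, which shields the glycosidases Glb1 and Neu1 in a complex, and Tpp1, the tripeptidyl peptidase of a childhood storage disease, were closer between microglia and border macrophages. Tpp1 stood at 135.0 and 128 CPM in microglia and at 135.1 and 156 CPM in border macrophages.

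Of the glycosidases and lysozyme, 6 of 7 were at least 2-fold higher in macrophages in each library. Lyz2, the lysozyme of phagocytes, showed the reverse order of Ctsd within the macrophages, with 12938 and 15970.4 CPM in border macrophages and 1128 and 2462 CPM in microglia. Lyz1, its near-identical copy, which could share reads with it, had 80.6 and 126 CPM in border macrophages and 0.319 and 3.42 CPM in microglia. Hexa, the alpha subunit of the ganglioside-cleaving hexosaminidase, was 2.56 and 2.79 above the other classes. Gla, the galactosidase lost in human Fabry disease, was low throughout: 16.2 against a mean of 6.83 CPM in the anti-PDCD1 library and 8.26 against 13.6 CPM in the anti-TIGIT library, where B cells held 62.2 CPM on 25 UMIs.

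Of the 6 lipid enzymes, activators and sterol transporters, 4 in the anti-PDCD1 and 5 in the anti-TIGIT library were at least 2-fold higher in macrophages. Grn, the precursor of the granulins, was 3.38 above the other classes in both libraries. Psap, which gives rise to the saposins, the activators of sphingolipid hydrolysis, was 1.86 and 1.22 above the mean of the other classes, yet the macrophages were below cDC1, with 3552 against 5009 CPM in the anti-PDCD1 library and 1964 against 3986 CPM in the anti-TIGIT library. The partners of cholesterol export split: Npc2, the soluble carrier, was 2.07 and 1.63 higher in macrophages, whereas Npc1, the membrane protein it hands cholesterol to, stood at 41.3 and 39.8 CPM in macrophages. Oligodendrocytes were highest in Npc1 with 263 and 264 CPM, followed by OPC with 73.8 and 90.05 CPM.

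All 5 membrane proteins were at least 2-fold above the mean of the other classes in macrophages. Lamp1, a main glycoprotein of the lysosomal membrane, nevertheless stood at 983 and 849 CPM in macrophages, below the 2301 and 2152 CPM of oligodendrocytes. Its sister protein Lamp2 stood at 427 and 426 CPM in macrophages and at 461 and 363 CPM in oligodendrocytes. Cd63, a tetraspanin of late endosomes and exosomes, was shared with fibroblasts and OPC: in the anti-TIGIT library border macrophages held 628 CPM, less than the 765 CPM of fibroblasts. Cd68, a marker of phagocytes, reached 216 and 269 CPM in cDC2 and at most 15.3 CPM in the compared T cells, B cells, plasma cells, fibroblasts and neural cells of both libraries.

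**Figure D2:**
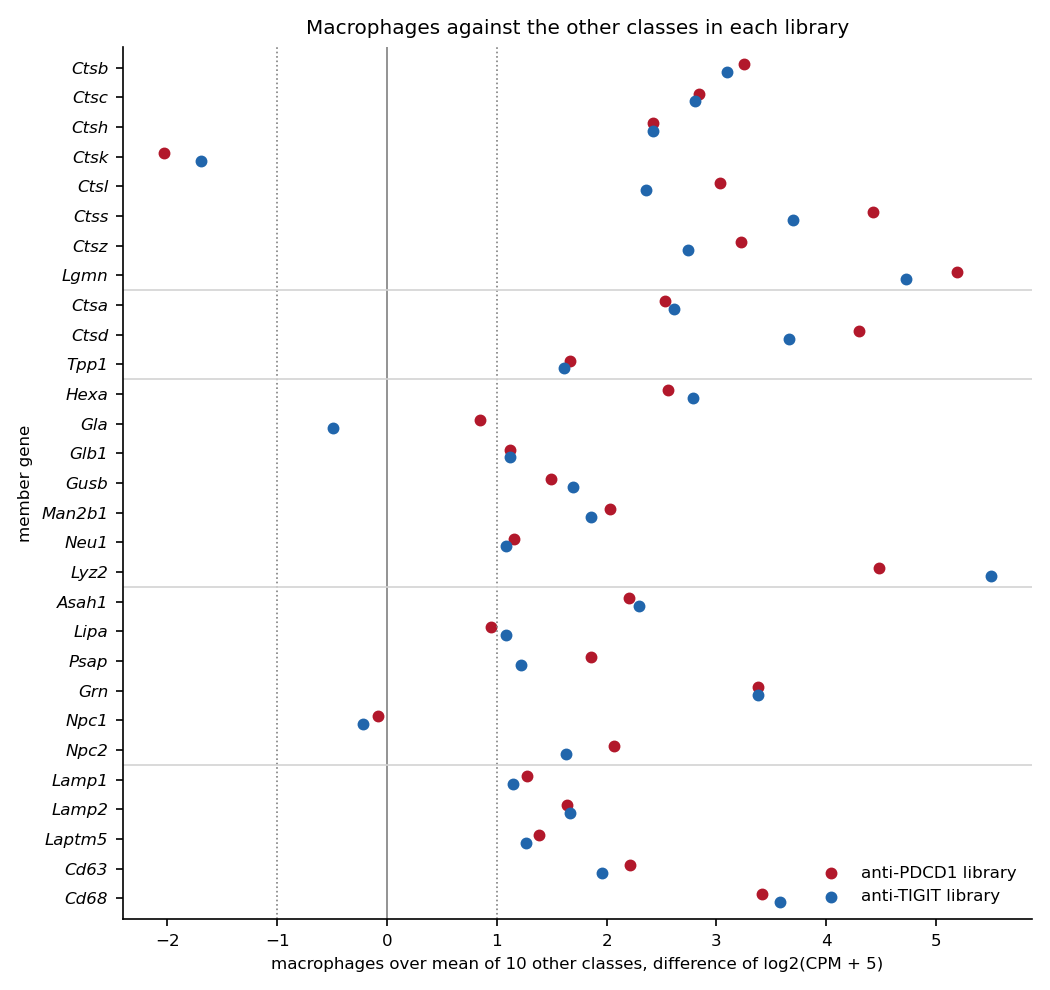
Level in the 3 macrophage classes summed minus the mean of 10 other classes, as a difference of log2(CPM + 5), for each member in each library, grouped by role; dotted lines mark 2-fold. Most points of both libraries lie right of the upper line, Ctsk lies left of the lower one, and Npc1 and Gla lie between them.

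Other lysosomal genes, listed by function, were read in the same contrast. Of all genes, 5.33% in the anti-PDCD1 library and 6.35% in the anti-TIGIT library were at least 2-fold higher in macrophages. Several lists are short, and whether they differ from these shares or from each other was not tested. Of 30 other hydrolases, 9 in the anti-PDCD1 library and 13 in the anti-TIGIT library were at least 2-fold higher in macrophages. Of 24 other membrane and transport genes 7 and 6 passed, among them the metal ion transporter Slc11a1 at 5.16 and 4.94. Of the 16 subunits of the proton pump that acidifies lysosomes, 2 passed in each library, and of 9 genes for the delivery of enzymes to lysosomes 1 passed in each. Among 13 regulators, Tfe3, Mitf and Flcn passed in both libraries, and Tfeb, at 33.0 and 30.8 CPM in macrophages, stayed within 2-fold. Of 4 cystatins, the inhibitors of cysteine cathepsins, 3 and 1 passed. Among 5 other cathepsins, Ctsf passed, and Ctsw, a protease of cytotoxic lymphocytes, was lower in macrophages, at -4.44 and -4.51. Of the other lists, Acp5, Abca2 and Igf2r were also at least 2-fold lower in both libraries, and Sidt2 in the anti-PDCD1 library.

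Between the treatments, microglia of the anti-PDCD1 library had more of several cathepsins and lipid-handling genes and less Lyz2 and Cd68. Of the 28 members with at least 10 UMIs in microglia (Ctsk had fewer), none was at least 2-fold higher and 1, Lyz2, was at least 2-fold lower, where 1.22% and 2.13% of all genes were. By the counting interval 12 members were higher and 7 lower, against 7.08% and 26.1% of all genes. The median member ratio was 0.06 on the log2 scale and that of all genes -0.17. Microglia of the anti-PDCD1 library were deeper, with a median of 6514 UMIs against 3745 UMIs, and the part of this in the ratios was not tested.

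Cd63 stood at 910.2 CPM in anti-PDCD1 microglia and 503 CPM in anti-TIGIT microglia, a log2 ratio of 0.86 (interval 0.76 to 0.96). Npc2 stood at 1787 and 1099 CPM, a ratio of 0.70. Ctsb, an abundant cysteine cathepsin, stood at 3588 and 2229 CPM, a ratio of 0.69 (0.64 to 0.74). These were the 3 largest differences toward anti-PDCD1, and Psap at 0.57, Ctsz at 0.53 and Ctss at 0.51 followed. Lyz2 stood at 1128 CPM in anti-PDCD1 microglia and 2462 CPM in anti-TIGIT microglia, a ratio of -1.13. Cd68 followed at -0.49, with 464 and 649.9 CPM, and Hexa at -0.30 and Gusb, the beta-glucuronidase, at -0.29. For Npc1, with 43.5 and 52.5 CPM, the ratio of -0.27 had an interval that held 0. Over all microglia the abundant Ctsd and Lgmn differed little, by 0.05 and -0.11, although both intervals lay off 0.

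The lower Lyz2 depends on which cells count as microglia. In Leiden clusters named by their gated cells, in place of the marker gate cell by cell, its ratio was 0.091. Microglia also differed between the treatments in class II MHC: with cells called high at 100 or more UMIs of Cd74, H2-Aa, H2-Ab1 and H2-Eb1 per 10000, 84.1% (1108 of 1317) of anti-PDCD1 and 33.3% (149 of 448) of anti-TIGIT microglia were high, with 55 and 42 cells within 2-fold of the limit. This division was made after the data were seen. Of the class II high cells, 75.7% in the anti-PDCD1 library and 46.3% in the anti-TIGIT library lay in clusters made up mostly of microglia. The 11 border macrophage markers summed to 123 CPM in the anti-PDCD1 and 359 CPM in the anti-TIGIT class II high cells, and 1 of them was at 0 in each. The 10 microglia markers summed to 2798 and 3678 CPM there, with none at 0.

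Split in this way, the higher Ctsb and Cd63 lay in the class II high cells. Ctsb stood at 3749.7 CPM in anti-PDCD1 and 2337 CPM in anti-TIGIT class II high cells, and 2135 and 2163 CPM in the class II low cells. Cd63 stood at 966 and 543 CPM in class II high cells and at 409 and 478 CPM in class II low cells. The ratios between the treatments were 0.68 for Ctsb and 0.83 for Cd63 in the high cells and -0.018 and -0.22 in the low cells. In all, 13 members were higher and 3 lower in class II high cells, against 4.78% and 12.4% of all genes, while 6 were higher and 6 lower in class II low cells, against 5.55% and 7.43%. Psap and Npc2 were higher in both parts, at 0.40 and 0.59 in the high cells and at 0.23 and 0.24 in the low cells. Hexa, lower over all microglia, stood at 0.082 in the high cells. Ctsd and Lgmn, which differed little over all microglia, stood at 0.44 and 0.25 in the high cells. In the low cells they stood at -0.19 and -0.14, and all of these intervals lay off 0.

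Within each library, class II high cells were also set against class II low cells. In the anti-PDCD1 library 12 members were higher and 5 lower in the high cells, where 6.27% and 21.9% of all genes were. In the anti-TIGIT library 5 were higher and 10 lower, where 6.73% and 12.6% were. Over all gated microglia, Ctsb, Ctsc, Npc2, Psap and Lyz2 were higher in both. Ctsc, the dipeptidyl peptidase that activates serine proteases of immune cells, differed by 0.65 and 0.85, whereas Ctsb differed by 0.81 in the anti-PDCD1 library and 0.11 in the anti-TIGIT library, and Lyz2 by 0.59 and 2.05. Ctsl, Lgmn, Hexa, Laptm5 and Cd68 were lower in both, with Cd68 at -0.69 and -0.40 and Ctsl at -0.24 and -0.77. Cd63 differed by 1.24 in the anti-PDCD1 library, and by 0.18, with an interval that held 0, in the anti-TIGIT library. Among the cells in microglia clusters alone, the anti-TIGIT values stood otherwise for Lyz2, with 804 CPM in class II high and 943 CPM in class II low cells, against 960.5 and 666 CPM in the anti-PDCD1 library. There Cd63 stood at 648 and 447 CPM and Ctsb at 2736 and 2099 CPM in class II high and low cells of the anti-TIGIT library, a wider gap than over all gated microglia, and at 972 and 376 CPM and 3781 and 2058 CPM in those of the anti-PDCD1 library. Between the treatments, when only these cells were kept, Cd63, Ctsb, Npc2, Psap and Ctsz stayed higher in anti-PDCD1 class II high cells, at 0.58, 0.47, 0.57, 0.41 and 0.41, Cd68 stayed lower at -0.34, and Lyz2 turned to 0.26. Ctsd and Lgmn did not stay higher. In these class II high cells Ctsd stood at 4867 CPM in the anti-PDCD1 and 4958 CPM in the anti-TIGIT library, and Lgmn at 2511 and 2822 CPM.

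**Figure D3:**
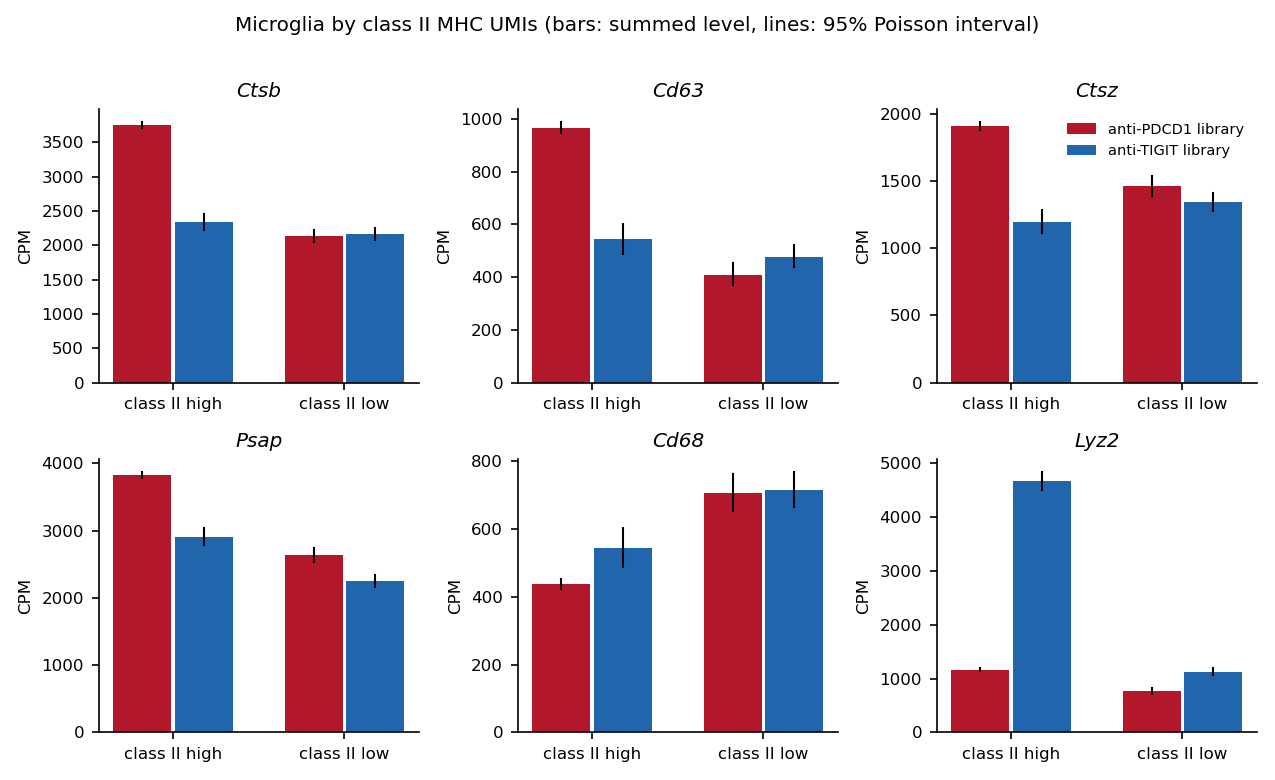
Level in CPM of 6 members in class II high and class II low microglia of both libraries, as bars from 0 with 95% Poisson intervals. Ctsb and Cd63 reach 3749.7 and 966 CPM in the anti-PDCD1 class II high cells. In class II low cells Ctsb differs little between the libraries, and Cd63 is lower in the anti-PDCD1 library, at 409 against 478 CPM. The tallest Lyz2 bar is that of the anti-TIGIT class II high cells.

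In border macrophages none of 28 measured members passed 2-fold in either direction, where 1.45% and 1.38% of all genes did. By the interval 5 were higher and 5 lower in the anti-PDCD1 library, against 6.02% and 8.06% of all genes. Ctsd stood at 1239.9 CPM in anti-PDCD1 and 778 CPM in anti-TIGIT border macrophages, a ratio of 0.67, and Psap at 2364 and 1497 CPM, a ratio of 0.66. Ctss at 0.32, Npc2 at 0.26 and Ctsz at 0.20 followed, and Hexa at -0.49, Man2b1, a lysosomal mannosidase, at -0.40, Lyz2 at -0.30, Cd68 at -0.16 and Cd63 at -0.16 were lower. Gla at 1.57, on 10 and 6 UMIs, Glb1 at -0.24 and Tpp1 at -0.21 had intervals that held 0. In Leiden clusters Ctsd, Ctss and Npc2 had ratios of -0.091, -0.17 and -0.056, so that the direction of these 3 depends on how border macrophages are delimited, while Psap stood at 0.17. Man2b1 turned to 0.035 when cells were thinned to 1000 UMIs.

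In macrophages with both kinds of marker, none of 28 members passed 2-fold in either direction, where 1.98% and 2.33% of all genes did. By the interval 12 were higher and 5 lower, against 6.86% and 11.3% of all genes. Psap at 0.82, Ctss at 0.74, Ctsz at 0.72, Ctsd at 0.69 and Npc2 at 0.60 led the higher ones. Glb1, the beta-galactosidase, at -0.73, Lyz2 at -0.69, Cd68 at -0.45, Hexa at -0.42 and Gusb at -0.38 were lower. These cells carried 1389 and 1905 CPM of microglia markers and 3214 and 5181 CPM of border markers.

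Cst7, which encodes cystatin F, an inhibitor of cathepsins in immune cells, was the 1 gene of the other lists that was at least 2-fold higher in all 3 macrophage classes of the anti-PDCD1 library. It stood at 338 CPM in anti-PDCD1 and 61.6 CPM in anti-TIGIT microglia, a ratio of 2.45, and its ratio was 1.86 in border macrophages and 3.04 in the mixed class. In microglia the sulfatase Arsb, with 143 and 373 CPM, the acetyltransferase Hgsnat at -1.45 and the sialomucin Cd164 at -1.08 were at least 2-fold lower. Acp5, an acid phosphatase, was higher in border macrophages on 21 and 4 UMIs, and in the mixed class. The other hydrolases, membrane genes, pump subunits, delivery genes and regulators had medians between -0.13 and 0.14 in microglia and border macrophages.

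**Figure D4:**
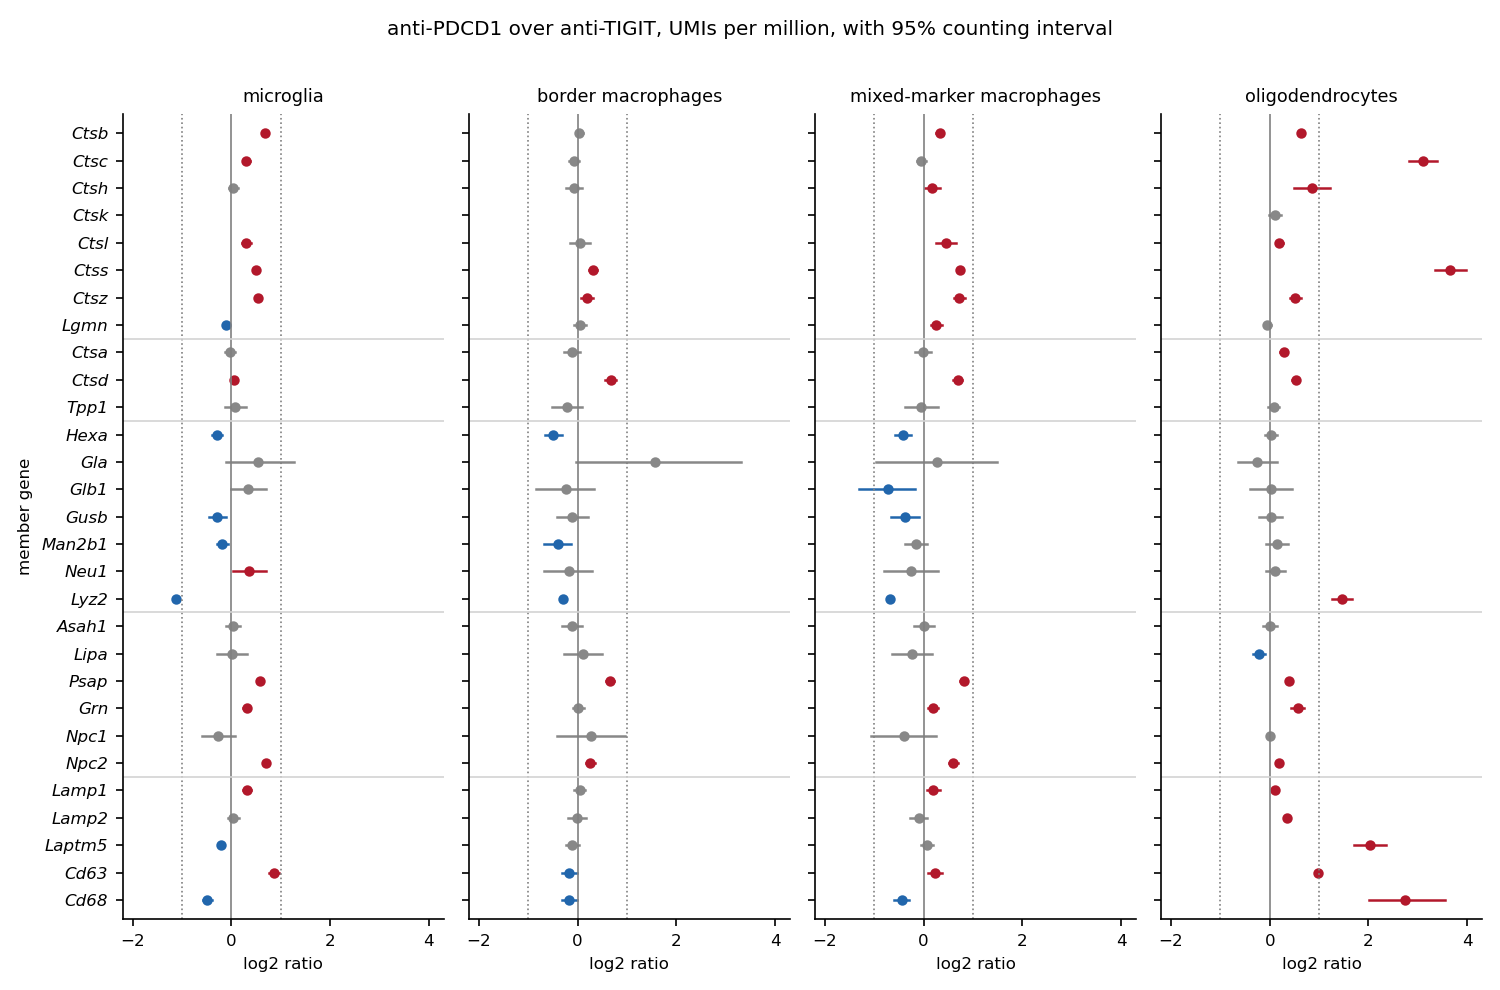
Log2 ratio of anti-PDCD1 over anti-TIGIT CPM in 4 classes, with 95% counting intervals; red lies above 0, blue below 0, grey holds 0, and dotted lines mark 2-fold. Psap, Npc2, Ctss, Ctsz and Ctsd are red in all 4 panels, Lyz2 is blue in the 3 macrophage panels and red in oligodendrocytes, and the coloured points past 2-fold are Ctss, Ctsc, Cd68, Laptm5 and Lyz2 in oligodendrocytes and Lyz2 in microglia.

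Oligodendrocytes, the myelin-forming cells, held more of many members in the anti-PDCD1 library. Of 29 measured, 5 were at least 2-fold higher and none lower, where 1.86% and 0.224% of all genes were, and 17 were higher and 1 (Lipa, the acid lipase) lower by the interval, against 18.7% and 17.9%. Ctss stood at 82.4 CPM in the anti-PDCD1 and 6.52 CPM in the anti-TIGIT library, a ratio of 3.66, and Ctsc at 70.7 and 8.22 CPM, a ratio of 3.10. Cd68 at 2.74, Laptm5, a membrane protein of immune cells, at 2.03 and Lyz2 at 1.46 were the others. Cd63, at 425 and 216 CPM, and Ctsb, at 665 and 427 CPM, had ratios of 0.98 and 0.64. Lamp1, Npc1 and Ctsk, the members in which oligodendrocytes stand out, differed little, with 2301 and 2152 CPM of Lamp1, 263 and 264 CPM of Npc1 and 66.3 and 61.7 CPM of Ctsk.

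Transcripts of macrophages were also higher in these cells, and beyond the values given here their part in the differences was not tested. C1qa, C1qb and C1qc, which macrophages make, summed to 287 CPM in anti-PDCD1 and 35.2 CPM in anti-TIGIT oligodendrocytes. The profile of the macrophages of the same library, scaled to that sum, would hold 88.1% and 91.3% of the Ctss measured in oligodendrocytes, 63.2% and 98.5% of the Cd68, 62.3% and 104% of the Lyz2 and 46.7% and 28.2% of the Laptm5. It would hold 17.5% and 27.3% of the Ctsc, 5.45% and 0.986% of the Ctsb and 2.14% and 0.471% of the Cd63. In oligodendrocytes without any C1q UMI, Ctsc had a ratio of 2.62, Ctss 2.31, Cd63 0.97 and Ctsb 0.56, and Lyz2 turned to -0.29, as it did (-0.093) when doublets were kept. With each cell thinned to 1000 UMIs, 5.84% of anti-PDCD1 and 0.661% of anti-TIGIT oligodendrocytes had a Ctsc UMI, against 0.368% and 0.714% of fibroblasts. Unthinned, the shares were 10.9% and 3.28% of oligodendrocytes, at median depths of 6202 and 6114.5 UMIs, and 3.10% and 1.35% of fibroblasts, at 5810.5 and 3752.5 UMIs.

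Ctsc, Cd63, Ctsb and Lamp2 were higher in anti-PDCD1 oligodendrocytes with more interferon response UMIs. These were read from 8 genes, Igtp, Irgm1, Gbp2, Gbp3, Tap1, Psmb8, Psmb9 and Iigp1, in bands of under 5, 5 to 40, 40 to 80 and 80 or more UMIs per 10000, chosen after the data were seen. The bands held 1457, 799, 327 and 162 anti-PDCD1 cells and 2007, 54, 9 and 4 anti-TIGIT cells. The median depth over the anti-PDCD1 bands was 6347, 3701, 7203 and 7661 UMIs. In the anti-PDCD1 library Ctsc stood at 37.7, 102, 134 and 119.6 CPM from the lowest band to the highest. Cd63 stood at 268, 540.01, 696 and 828 CPM, and Ctsb at 539, 779, 892 and 893 CPM. Lamp2 stood at 390.1, 496, 605 and 658 CPM. Lamp1 ran the other way, with 2489 CPM in the lowest band and 1917 CPM in the highest, and so did Npc1, with 292 and 196 CPM.

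The C1q sum did not follow the bands. It was 129, 795, 194 and 39.6 CPM, highest in the band that was also the shallowest, and Ctss went with it at 31.4, 236, 67.3 and 11.7 CPM. In the highest band the C1q sum was lowest, Cd63 and Lamp2 were at their highest and Ctsb was close to its level in the band before. The part of macrophage transcripts or of depth in the levels of the bands was not tested. Of the 29 members, the highest over the lowest band had 2 at least 2-fold higher, Ctsc at 1.66 and Cd63 at 1.63, and 2 lower, Ctss at -1.43 and Lyz2 at -1.29, where 2.72% and 1.83% of all genes were. By the interval 7 were higher and 7 lower, against 9.64% and 15% of all genes. In the lowest band alone the treatments still differed: Ctsc stood at 37.7 CPM in anti-PDCD1 and 7.51 CPM in anti-TIGIT cells, while Cd63 was closer, at 268 and 212 CPM, and Ctsb stood at 539 and 426 CPM. There 17 members were higher and 3 lower by the interval, against 13.8% and 11.7% of all genes, and the C1q sums were 129 and 32.9 CPM.

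**Figure D5:**
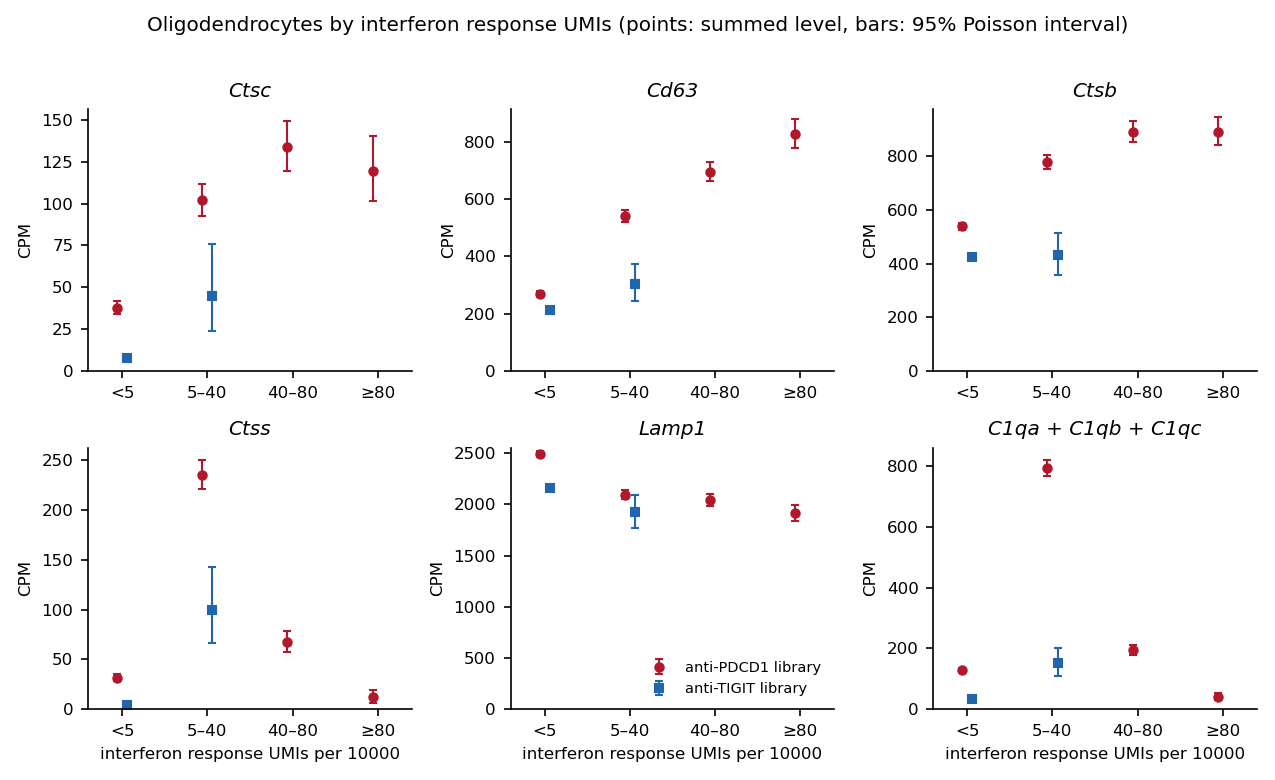
Level in CPM of 5 members and the summed C1q genes in oligodendrocytes by interferon response UMIs per 10000, with 95% Poisson intervals; the upper 2 bands of the anti-TIGIT library, with 9 and 4 cells, are not drawn. Cd63 and Ctsb reach 828 and 893 CPM in the highest band of the anti-PDCD1 library, Ctsc peaks at 134 CPM in the band before it, Lamp1 declines, and Ctss follows the C1q sum.

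Over all 13 classes some members stood mostly on 1 side between the treatments. Psap was higher by the interval in the anti-PDCD1 library in 11 classes and lower in cDC2. Npc2, Ctss and Ctsz were higher in 10 classes and lower in none, and Ctsb and Ctsd in 8, as was Ctsl among the 12 in which it was measured. Hexa and Man2b1 were lower in 5 classes each and higher in none. For Tpp1 and Asah1, the acid ceramidase, the interval held 0 in all 13. The share of all genes that reach such counts of classes was not computed. All classes of a library share its pool of mice and its processing, so the 13 are not separate checks. The C1q sum was also higher in the anti-PDCD1 library in each of the 13 classes but cDC2, where it was lower, and its part in these counts was not tested. In cDC1 the C1q sum rests on 70 and 18 UMIs, and its intervals, 46.6 to 75.5 and 22.5 to 60.1 CPM, overlapped. Macrophages make C1q themselves.

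In cDC2 most of the members that differed were lower in the anti-PDCD1 library: of 28 measured, 3 were higher and 10 lower by the interval, against 9.23% and 10.4% of all genes. None was at least 2-fold higher and 1 was lower, where 0.926% and 0.974% were. This was Lyz2, with 672 and 1432 CPM, a ratio of -1.09, and the C1q sums were 683 and 1565 CPM. The macrophage profile scaled to these sums would hold 10.4% of the anti-PDCD1 and 55.3% of the anti-TIGIT Lyz2 in cDC2. In cDC1 5 of 26 were higher and 3 lower by the interval, against 5.7% and 7.47%, and 2 were at least 2-fold higher and 2 lower, where 3.9% and 2.77% were. Lyz2 stood at 234 and 614 CPM, a ratio of -1.39, and Grn at 381 and 211 CPM, a ratio of 0.85.

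In fibroblasts 5 of 29 members were higher and 3 lower by the interval, against 6.37% and 8.34% of all genes. Ctsk, which was highest in these cells, had a ratio of 0.45, and Npc1, with 14.9 and 31.3 CPM, one of -1.07. Ctss, on 42 and 2 UMIs, was the 1 member at least 2-fold higher and none was lower, where 1.88% and 2.61% were, and the C1q sums were 112 and 28.2 CPM, at which the scaled macrophage profile would hold 122% and 152% of that Ctss. In OPC Cd63 alone was higher by the interval, at 661 and 445 CPM, and Hexa and Gla were lower, where 5.3% and 9.87% of all genes were higher and lower. By 2-fold, Laptm5 was higher and Gla lower, where 4.13% and 2.49% were. The Laptm5 rests on 34 and 1 UMIs with an interval that held 0, and the C1q sums were 68.0 and 20.01 CPM, at which the scaled macrophage profile would hold 27.4% and 42.8% of it.

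In all 3 T cell classes Ctsb, Ctss, Ctsz, Ctsl, Ctsh, Lgmn, Grn, Npc2 and Psap were higher by the interval in the anti-PDCD1 library, and so was the C1q sum. In CD8 T cells 13 of 28 measured members were higher and 1, Man2b1, lower, where 12.6% and 12.7% of all genes were. Cd63 was the 1 member at least 2-fold higher and none was lower, where 1.55% and 0.625% were. It stood at 16.0 CPM in anti-PDCD1 and 1.79 CPM in anti-TIGIT CD8 T cells, on 109 and 4 UMIs. Ctsb stood at 278 and 166 CPM there. The C1q sums in these cells were 225 and 29.5 CPM, and a macrophage profile scaled to them would hold 44.5% and 47.7% of the Cd63 and 10.2% and 2.14% of the Ctsb.

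In CD4 T cells 10 of 28 members were higher and none lower by the interval, against 9.73% and 6.38% of all genes. Lgmn, on 44 and 1 UMIs, and Ctsh, on 21 and 0 UMIs, were at least 2-fold higher and none was lower, where 2.64% and 0.921% were. The C1q sums were 188 and 25.0 CPM, and the scaled profile would hold 82.9% and 196% of the Lgmn and 46.2% of the anti-PDCD1 Ctsh. In the T cells that neither the CD4 nor the CD8 rule took, 13 of 28 were higher and none lower, against 10.9% and 7.77%. Cd63 at 2.62, Ctsl at 2.82, Lgmn at 1.51 and Lyz2 at 1.43 were the 4 that passed 2-fold and none was lower, where 2.07% and 0.906% of all genes were. In the anti-PDCD1 library the scaled macrophage profile would hold 47.1% of this Cd63, 51.0% of the Ctsl, 116% of the Lgmn and 49.4% of the Lyz2.

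In plasma cells 14 of 28 members were higher and 3 lower by the interval, against 10.8% and 4.52% of all genes. Cd63, with 11.6 and 1.25 CPM, and Ctsl, with 16.9 and 3.33 CPM, were at least 2-fold higher and none was lower, where 1.81% and 0.639% were. The C1q sums were 212 and 13.3 CPM, and the scaled profile would hold 57.7% and 30.8% of the Cd63. In B cells 7 of 26 were higher and 2 lower by the interval, against 6.47% and 10.6%, and 3 were at least 2-fold higher and 2 lower, where 4.1% and 8.2% were. Lyz2 stood at 90.3 and 9.95 CPM on 49 and 4 UMIs, with C1q sums of 278 and 19.9 CPM, and its ratio was -0.86 in Leiden clusters. Gla stood at 12.9 and 62.2 CPM on 7 and 25 UMIs.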

How the data were processed

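Single-cell 5′ libraries were analysed, 1 per treatment. The authors deposited a matrix of UMI counts for each library. Per the file headers they came from Cell Ranger 8.0.0 (anti-PDCD1) and 8.0.1 (anti-TIGIT), and the genome was mm10, per the submitters' processing notes, which also name Seurat 5.0.3 and R 4.1.1. The members, lists and markers were chosen with earlier results of these data known.

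Barcodes under 200 genes or over 10% mitochondrial UMIs were dropped, and Scrublet doublets were removed (591 and 145 cells). A cell took a class when it had at least 3 of its markers and at most 50% as many of any other class, a rule set after the data were seen. Border macrophages and microglia were separated within their joint list of 21 markers. CPM are from sums over the cells of a class in 1 library. Poisson intervals and conditional binomial intervals for log2 ratios are exact at 95%, and shares have exact Clopper-Pearson intervals. Sizes were taken on log2(CPM + 5) among genes with at least 10 counts, with 2-fold as the limit. All members could be named. Given in full were those past 2-fold with at least 50 counts in a class, and the 5 largest differences in each direction in microglia and border macrophages. The calculation was tested on simulated data. Of the members, 8 overlap a gene on the other strand (Ctsa, Ctsb, Ctsl, Ctsz, Lamp1, Hexa, Grn and Npc1), and Glb1 overlaps Tmppe on its own strand. Reads of such genes could be split by the counting.

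Alternatives were no doublet removal, other filters and gates, Leiden clusters (2000 variable genes, 30 components, 15 neighbours, resolution 1.0), thinning to 1000 UMIs, other pseudocounts and scaling by the median of all genes. Those added after seeing the data were the parts of microglia and oligodendrocytes given in the results. Left out were 8 classes with under 50 cells in a library. Clustering used leidenalg 0.10.2 and igraph 0.11.9 through scanpy 1.11.5 and anndata 0.12.19. Intervals came from scipy 1.17.1 and tables from pandas 2.3.3 and numpy 2.4.6, under Python 3.11.15. Plots were drawn with matplotlib 3.10.9.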

Additional observations from a re-analysis of the deposited data

How the results depend on the processing

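No paired analysis was possible because each treatment has 1 library. Counts and medians over the members stayed close to their values in 109 of 114 settings. Medians near 0 nevertheless changed sign in 7 of these: in microglia after thinning (-0.017) and in class II low cells (-0.017, and -0.047 in clusters), in border macrophages after thinning (0.048), relative to all genes (0.021) and in cells with an Xist UMI (0.044), and in mixed-marker macrophages after thinning (-0.080). The 5 exceptions were also medians between the libraries. That of oligodendrocytes was 0.28 in Leiden clusters, 0.44 after thinning and 0.12 in cells without C1q UMIs, and that of microglia 0.23 relative to all genes and 0.23 in class II high cells, the last and the C1q setting being added after the data were seen. Of 37 single member values in 410 settings, 391 kept their direction. Fewer, 282, stayed within the counting interval of the main setting, and 113 moved out of it. In 15 a value whose interval lay off 0 turned, and in 4 (Gla and Glb1 in border macrophages and Npc1 in microglia) one whose interval held 0. Lyz2 turned in oligodendrocytes without doublet removal (-0.093) and without C1q UMIs (-0.29), in microglia (0.091) and B cells (-0.86) by Leiden clusters, and in class II high cells of microglia clusters (0.26). Leiden clusters also turned Npc2 (-0.056), Ctss (-0.17) and Ctsd (-0.091) in border macrophages, and thinning turned Man2b1 there (0.035). In microglia, Hexa turned in class II high cells (0.082, and 0.066 in clusters), and Ctsb and Cd63 in class II low cells (-0.018 and -0.22, and -0.029 and -0.25 in microglia clusters). The cause was not tested. Depth limits Gla, Ctsk outside fibroblasts and oligodendrocytes, and the T cell values of Cd63, Ctsl and Ctsh, which rest on few UMIs in the anti-TIGIT library.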
